A study of Saccharomyces cerevisiae with 3 samples.

Results

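The peroxisome genes described here are those whose symbol in the array annotation is PEX followed by a number, the peroxins that build the organelle, and 12 named genes of fatty acid beta-oxidation and its supply of substrate and cofactors. The rule found 39 genes among the 5539 named on the array, of which 27 are peroxins. Transcripts were compared in wild-type Saccharomyces cerevisiae, budding yeast, between cells kept for 1 h in 0.2 mM arsenite, that is, trivalent arsenic, and untreated cells of the same strain. Each of 3 arrays held the RNA of treated and of untreated cells together and gives 1 ratio per spot. On replicates 1 and 2 Cy5 was the dye of the treated RNA, and on replicate 3 it was Cy3. The sources used here do not give the strain background, medium, carbon source or mating type, nor whether separate cultures stood behind the arrays.

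Peroxisomes are the only site of fatty acid beta-oxidation in yeast, unlike in mammals, where mitochondria share the task. Peroxins insert the membrane proteins of the organelle, import its folded matrix enzymes through cycling receptors, and set its size and number. In yeast, glucose represses the genes of beta-oxidation, and fatty acids such as oleate induce them through the transcription factors Oaf1 and Pip2 together with Adr1.

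Ratios are given as log2 of treated over untreated cells, with the spots of a gene averaged on each array and each array centred on the median of all genes. Values are mean ± SD over the 3 arrays, and a gene is called higher or lower when its limma adjusted p, corrected over all 5539 genes, is under 0.05. No source names the base of the deposited logarithm, and base 2 was assumed; a natural logarithm would make every log2 ratio 1.44 times larger without changing a test. The direction, Cy5 over Cy3, is likely rather than stated: it rests on the dyes in the labels and on titles that put treated cells first. Replicate 3 was turned because its dyes were exchanged and its deposited spots correlated negatively with those of replicates 1 and 2 (r = -0.782 and -0.613). An array compares amounts of RNA, so fewer cells with a transcript and less of it per cell cannot be told apart.

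Few peroxisome genes were called different between arsenite-treated and untreated cells. Of the 39, 4 were higher (PEX34, CAT2, PEX30 and CRC1), 3 were lower (PEX3, PEX2 and PEX10) and 32 were not called. Among the peroxisome genes this was 10.3% higher and 7.69% lower, against 14.5% higher and 18.1% lower, 32.7% in all, over the genes tested. At an unadjusted limma p under 0.05, 12 of the 39 passed (30.8%), against 42.2% of all genes. PEX34 was the 1 gene of 39 called at least 2-fold higher, against 5.29% of all genes, and 0 of 39 were called at least 2-fold lower, against 8.34%. The median was 0.12 over the peroxisome genes, with 0.16, 0.13 and 0.040 on replicates 1, 2 and 3, against 0.0051 over all genes. The counts depended on the arrays used. Leaving out replicate 1 gave 2 higher and 1 lower, with 412 and 602 of all genes. Leaving out replicate 2 gave 8 higher and 3 lower, with 939 and 1041 of all genes, and leaving out replicate 3 gave 6 higher and 2 lower, with 845 and 1071. As deposited, with no centring of the arrays, 5 were higher and 1 lower, with 606 and 603 of all genes, beside a median of 0.10 over all genes. The split over all genes, 805 higher and 1004 lower, was 1109 and 869 after quantile normalization, where 8 peroxisome genes were higher and 2 lower.

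**Figure D1:**
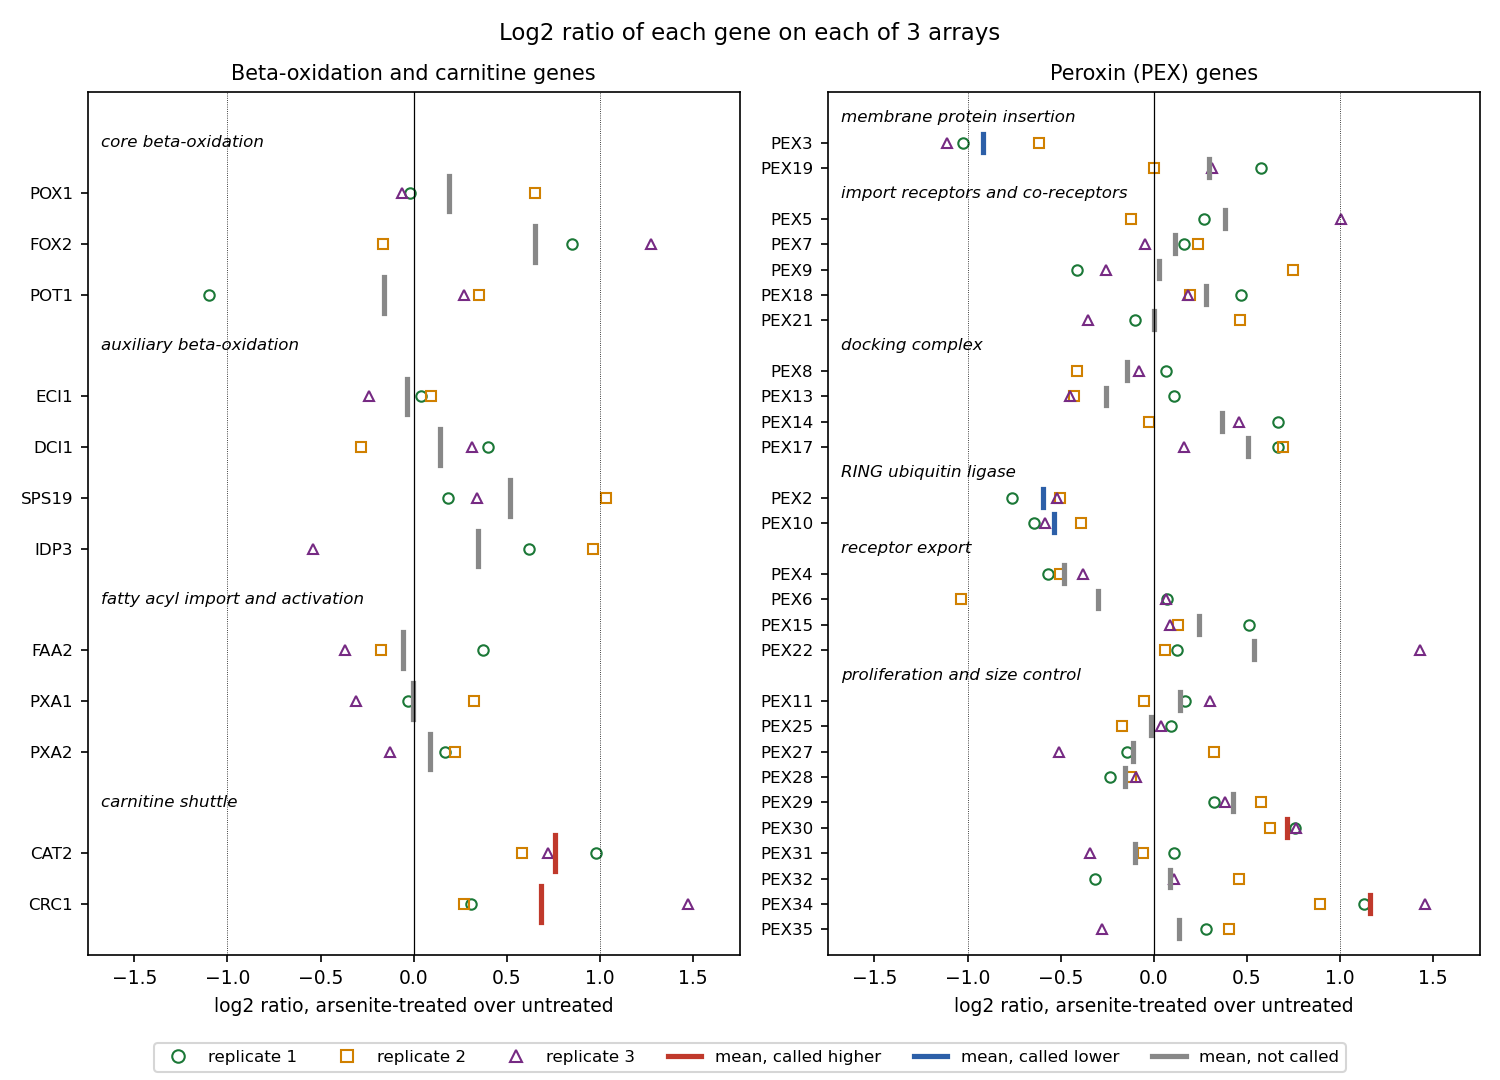
Log2 ratio, arsenite-treated over untreated (horizontal axes), for each of the 12 beta-oxidation and carnitine genes (left) and the 27 peroxin genes (right), grouped by role. Open symbols are the 3 arrays, vertical bars are their means coloured by call, and dotted lines mark 2-fold; the bars of PEX34, CAT2, PEX30 and CRC1 are called higher and those of PEX3, PEX2 and PEX10 lower.

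The 3 core enzymes of the beta-oxidation spiral were not called, and their arrays disagreed. POX1 encodes acyl-CoA oxidase, which makes the first double bond and hydrogen peroxide, and had -0.017, 0.65 and -0.062 on replicates 1, 2 and 3 (mean 0.19 ± 0.40, limma adjusted p = 0.496). Replicate 2 was high and the other arrays lay just below 0. FOX2 encodes the multifunctional enzyme with hydratase and dehydrogenase activities, and had 0.85, -0.16 and 1.27 (mean 0.65 ± 0.74, adjusted p = 0.0561). Replicates 1 and 3 were high and replicate 2 lay below 0. Without replicate 2 the mean of FOX2 was 1.06 and it was called higher (limma adjusted p = 0.000272). It was also called as deposited (adjusted p = 0.0471). POT1 encodes the thiolase that cleaves off acetyl-CoA, and had -1.10, 0.35 and 0.27 (mean -0.16 ± 0.82, adjusted p = 0.670). Replicate 1 alone was low, and that array held the lowest value of POT1 among the 3 by more than 2-fold. The difference of FOX2 minus POT1 was 1.95, -0.52 and 1.00 on the 3 arrays, so the order of these enzymes within an array was not the same on all of them.

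Neither were the auxiliary enzymes, which handle unsaturated fatty acids, called. SPS19, the dienoyl-CoA reductase, had 0.19, 1.03 and 0.34 (mean 0.52 ± 0.45, limma adjusted p = 0.0687). All arrays lay above 0, with replicate 2 highest. IDP3, the peroxisomal isocitrate dehydrogenase that supplies the NADPH for this reductase, had 0.62, 0.96 and -0.54 (mean 0.35 ± 0.79, adjusted p = 0.321). Replicate 3 lay below 0 and the other arrays well above it. Without replicate 3, both SPS19 (mean 0.61, limma adjusted p = 0.0305) and IDP3 (mean 0.79, adjusted p = 0.00356) were called higher. Without replicate 2, the mean of SPS19 was 0.26 and that of IDP3 was 0.037. The enoyl-CoA isomerase ECI1 had -0.036 ± 0.18 and its paralog DCI1 0.14 ± 0.37. ECI1 minus DCI1 was -0.36, 0.38 and -0.55 on the 3 arrays, a difference without 1 sign.

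The genes that bring fatty acids into the organelle and activate them lay near 0, and 0 of these 3 passed limma at an unadjusted p under 0.05, against 42.2% of all genes. PXA1 and PXA2 together encode the ABC transporter of long-chain acyl-CoA, and had -0.0041 ± 0.32 and 0.088 ± 0.19 (limma adjusted p = 0.991 and 0.746). Their 95% intervals were -0.42 to 0.41 and -0.30 to 0.48, which leave out a 2-fold change either way. The difference between these subunits, PXA1 minus PXA2, was -0.092 ± 0.17. FAA2, the peroxisomal acyl-CoA synthetase for medium-chain fatty acids, had 0.37, -0.18 and -0.37 (mean -0.057 ± 0.39). Replicate 1 lay above 0 and the others below.

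The carnitine genes, which carry acetyl units from peroxisomes to mitochondria, were both called higher. CAT2, carnitine acetyltransferase of peroxisomes and mitochondria, had 0.98, 0.58 and 0.72 on replicates 1, 2 and 3. All 3 arrays were clearly above 0. Its mean was 0.76 ± 0.20, or 1.69-fold (limma adjusted p = 0.00585), and the call was lost without replicate 1 (mean 0.65, adjusted p = 0.156). CRC1, the mitochondrial carrier of acetyl-carnitine, had 0.31, 0.27 and 1.47. Replicate 3, the array with exchanged dyes, was more than 2-fold above the other arrays. The mean of CRC1 was 0.68 ± 0.68, or 1.61-fold (limma adjusted p = 0.0410); without replicate 3 it was 0.29 and not called (adjusted p = 0.357). The call of CRC1 was also lost with arrays centred on the median of all spots (limma adjusted p = 0.0518), within runs of neighbouring spots (0.0710), or with the last spot of each gene alone (0.134). With a dye term for each gene in the fit, the treatment effect of CRC1 was 0.88 and its dye term -0.59. The part of the dye in this value was not tested further, since 1 array carries the exchange. CAT2 minus CRC1 was 0.67, 0.31 and -0.75 on the 3 arrays, so neither gene was the higher one throughout.

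Among the peroxins, the membrane insertion factor PEX3 was the lowest of the 39 genes. Pex3 sits in the peroxisomal membrane and receives new membrane proteins from Pex19, their soluble chaperone. PEX3 had -1.02, -0.62 and -1.11 on replicates 1, 2 and 3, with all arrays below -0.5. Its mean was -0.92 ± 0.26, or 1.89-fold lower in treated cells (limma adjusted p = 0.00199). The call held with any 1 array left out (adjusted p = 0.0402, 0.000189 and 0.00230 without replicates 1, 2 and 3) and as deposited (0.0248). Its partner PEX19 had 0.58, 0.0017 and 0.31 (mean 0.30 ± 0.29, adjusted p = 0.251). No array of PEX19 lay below 0, so PEX3 was below PEX19 on every array.

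PEX2 and PEX10, genes of the RING-finger ubiquitin ligase, were lower. This membrane complex ubiquitinates the import receptors so that they can be recycled. PEX2 had -0.76, -0.50 and -0.52 (mean -0.59 ± 0.14, 1.51-fold lower, limma adjusted p = 0.0218). PEX10 had -0.64, -0.39 and -0.58 (mean -0.54 ± 0.13, 1.45-fold lower, adjusted p = 0.0350). The 3 arrays of each gene were all below 0 and close together. These calls were marginal. PEX2 was not called without replicate 1 (limma adjusted p = 0.306) and PEX10 not without replicate 1 (0.340) or replicate 3 (0.0730). The means of PEX2 and PEX10 without replicate 1 were -0.51 and -0.49. As deposited, neither was called (adjusted p = 0.229 and 0.298), nor was either with the first spot of each gene alone (0.109 and 0.0760). PEX10 was also not called after quantile normalization (0.0679) or with the last spot alone (0.0505).

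PEX4, the ubiquitin-conjugating enzyme that works with this ligase, lay just outside the threshold. It had -0.57, -0.50 and -0.38 (mean -0.48 ± 0.10, limma adjusted p = 0.0527), below 0 on all arrays. PEX4 was called lower in 3 of 14 alternatives. These were arrays centred on the median of all spots (limma adjusted p = 0.0449), within runs of neighbouring spots (0.0291) and array weights (1.17e-05). The fit with array weights called 67.3% of all genes. PEX4 was not called without replicate 1 (limma adjusted p = 0.397) or as deposited (0.372). Nor was it called after quantile normalization (0.108) or with the first spot of each gene alone (0.0968). Its membrane anchor PEX22 had 0.12, 0.060 and 1.43 (mean 0.54 ± 0.77, adjusted p = 0.119), with replicate 3 alone far above the other arrays. PEX4 minus PEX22 was -0.69, -0.56 and -1.81 and below 0 on every array. Without replicate 2, PEX22 was called higher (mean 0.78, limma adjusted p = 0.0172), and without replicate 3 its mean was 0.092. PEX6 encodes an ATPase that pulls ubiquitinated receptors out of the membrane, and had 0.072, -1.03 and 0.065 (mean -0.30 ± 0.64, adjusted p = 0.345). Replicate 2 alone was low. PEX15, which anchors Pex6 at the membrane, had 0.24 ± 0.23 (adjusted p = 0.343).

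None of the 5 import receptor genes was called, and 0 of 5 passed limma at an unadjusted p under 0.05, against 42.2% of all genes. PEX5, the receptor for matrix proteins with a carboxy-terminal targeting signal, had 0.27, -0.12 and 1.01 (mean 0.38 ± 0.57, limma adjusted p = 0.202). Replicate 3 was 2-fold above untreated cells and replicate 2 below 0, and without replicate 2 PEX5 was called higher (mean 0.64, adjusted p = 0.0223). PEX9, the paralog of PEX5 that imports a subset of its cargo, had -0.41, 0.75 and -0.26 (mean 0.026 ± 0.63). The spots of PEX9 disagreed on replicate 1, with 0.34 and -1.17, the widest gap between duplicate spots among the 39 genes. PEX7, the receptor for the amino-terminal signal carried by the thiolase, had 0.12 ± 0.15. Its co-receptors PEX18 and PEX21 had 0.28 ± 0.16 and 0.0015 ± 0.42. PEX18 minus PEX21 was 0.57, -0.27 and 0.54, without 1 sign on the 3 arrays.

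The docking complex, where loaded receptors meet the membrane, had 0 of its 4 genes called, against 32.7% of all genes, and split around 0. At an unadjusted limma p under 0.05, PEX17 alone of the 4 passed (25%), against 42.2% of all genes. PEX17 had 0.66, 0.69 and 0.16 (mean 0.51 ± 0.30, limma adjusted p = 0.0555), above 0 on all arrays. It was called higher without replicate 3 (mean 0.68, adjusted p = 0.0140). PEX14, a core docking protein, had 0.67, -0.026 and 0.45 (mean 0.37 ± 0.35, adjusted p = 0.172). It was called higher without replicate 2 (mean 0.56, adjusted p = 0.0295), the array on which it lay just below 0. PEX13, the other membrane component of the dock, had -0.26 ± 0.31, and PEX8, which links the dock to the ligase from the matrix side, had -0.14 ± 0.25.

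The 10 genes of peroxisome proliferation and size held both peroxins that were called higher. These 2 of 10 (20%) stand beside 14.5% higher over all genes, and 0 of the 10 were lower, beside 18.1%. PEX34, a membrane protein that acts in peroxisome number, had 1.13, 0.89 and 1.46 on replicates 1, 2 and 3. Every array was near or above 2-fold. The mean was 1.16 ± 0.28, or 2.23-fold (95% interval 0.75 to 1.56, limma adjusted p = 0.000387), at rank 214 of 5539 genes from the top. The call of PEX34 held with any 1 array left out (adjusted p = 0.00237, 2.85e-05 and 0.000118 without replicates 1, 2 and 3). PEX30, an endoplasmic reticulum membrane protein that regulates where new peroxisomes form, had 0.76, 0.62 and 0.76. These arrays were the closest together among the 7 called genes. Its mean was 0.72 ± 0.081, or 1.64-fold (limma adjusted p = 0.00734), and the call was lost without replicate 1 (mean 0.69, adjusted p = 0.125).

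The relatives of PEX30 were not called. PEX31 had 0.11, -0.060 and -0.34 (mean -0.10 ± 0.23) and PEX32 had -0.31, 0.46 and 0.11 (mean 0.085 ± 0.39). PEX30 lay above PEX31 on all 3 arrays, by 0.65, 0.68 and 1.11, and above PEX32 by 1.07, 0.16 and 0.65. Such differences between genes of 1 array are given as values and were not tested. PEX28 and PEX29, which also act in peroxisome number, had -0.24, -0.12 and -0.10 (mean -0.15 ± 0.075) and 0.32, 0.58 and 0.38 (mean 0.43 ± 0.13, limma adjusted p = 0.0859). PEX28 minus PEX29 was -0.58 ± 0.11, with 1 sign on all arrays. PEX11, the main driver of peroxisome elongation and division, had 0.17, -0.055 and 0.30 (mean 0.14 ± 0.18), and its relatives PEX25 and PEX27 had -0.013 ± 0.14 and -0.11 ± 0.42. PEX35, a membrane protein that controls peroxisome abundance, had 0.13 ± 0.36. None of these 4 had a mean beyond 0.14 on either side of 0.

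**Figure D2:**
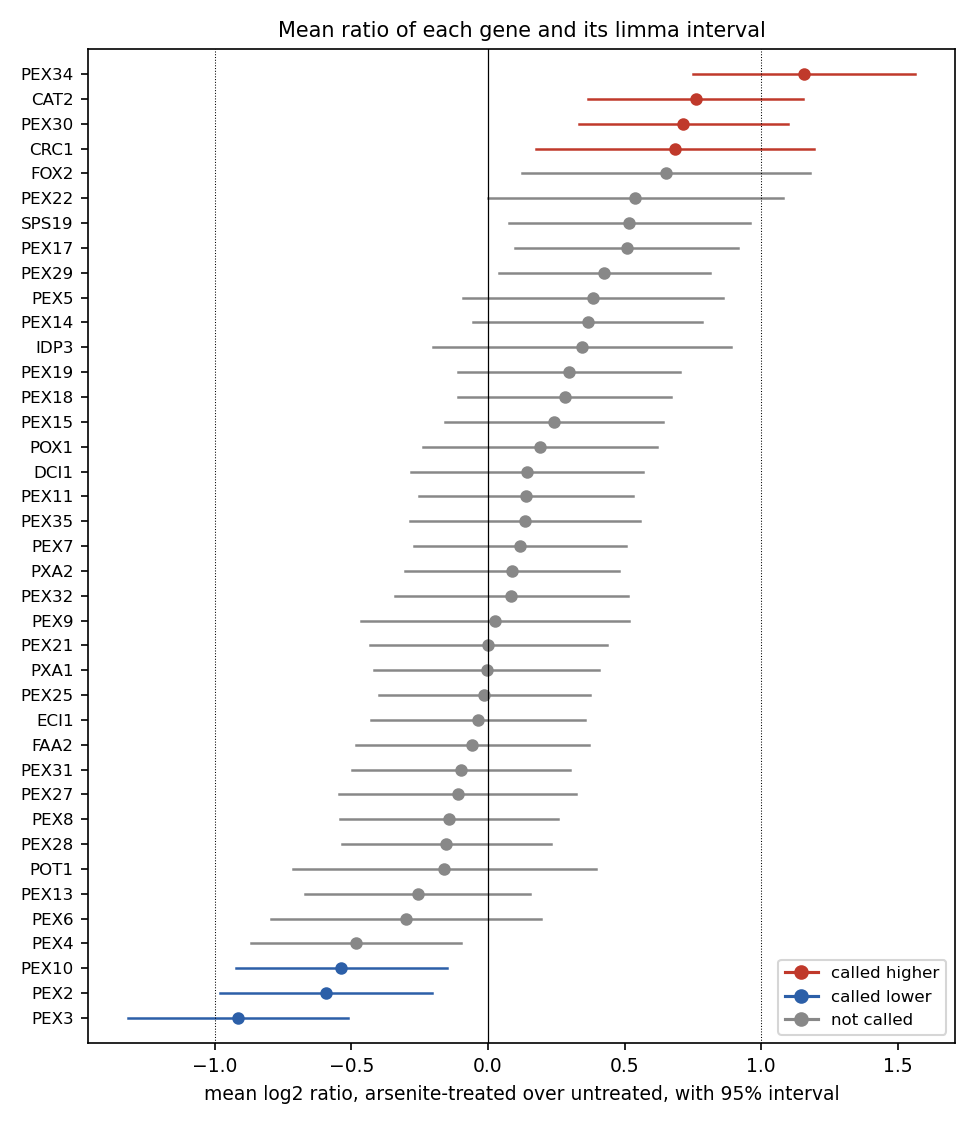
Mean log2 ratio, treated over untreated, for each of the 39 genes (points) with its 95% interval from limma (lines), in order of the mean, coloured by call; dotted lines mark 2-fold. PEX34 stands highest at 1.16 and PEX3 lowest at -0.92, and the intervals of most genes between them stay within 2-fold.

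The intervals show how large a change could be for the genes that were not called. For 30 of the 32, the 95% interval lay within 2-fold either way, and the exceptions were FOX2 (0.13 to 1.18) and PEX22 (-0.0015 to 1.08). Over all genes, 3646 of the 3730 that were not called had such an interval, so this is not particular to the peroxisome genes. The standard error of a gene was between 0.177 and 0.257, which limits the size of change that 3 arrays could resolve. Around the threshold, PEX10 (adjusted p = 0.0350) and CRC1 (0.0410) lay just inside, and PEX4 (0.0527), PEX17 (0.0555) and FOX2 (0.0561) just outside, all by limma.

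The peroxisome genes had lower correlations between arrays than all genes had. Across the 39 genes, Pearson's r with replicate 1 was 0.366 for replicate 2 and 0.583 for replicate 3, and replicates 2 and 3 had r = 0.254. Across all genes the same pairs had 0.823, 0.842 and 0.679. The quartiles of the mean ratio were -0.10 and 0.37 over the 39 genes, against -0.36 and 0.35 over all genes. The extremes were -0.92 and 1.16 among the 39 genes, against -2.61 and 4.83 among all 5539. The correlations are thus not taken over equal ranges, and the part of the range in the lower r was not tested. These are descriptions across genes, which share arrays and are not independent replicates. The SD between arrays was similar, with a median of 0.30 over the peroxisome genes and 0.28 over all genes. It was 0.39 over the 12 beta-oxidation and carnitine genes and 0.26 over the peroxins. Of the 39 genes, 16 had 1 sign on all 3 arrays (41.0%), against 58.9% of all genes. Only 3 of the 12 beta-oxidation and carnitine genes did, SPS19, CAT2 and CRC1.

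**Figure D3:**
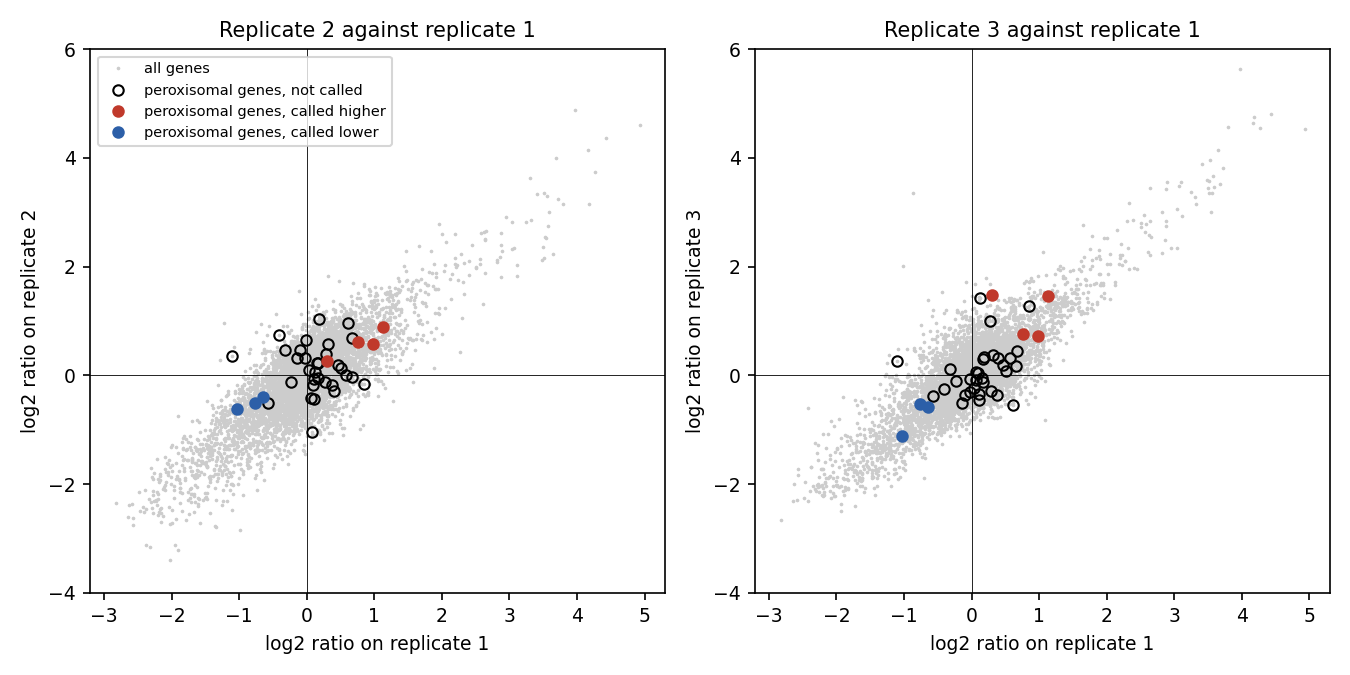
Log2 ratio, treated over untreated, on replicate 2 (left, vertical axis) and replicate 3 (right, vertical axis) against replicate 1 (horizontal axes), with all 5539 genes in grey and the 39 peroxisome genes as circles, filled red or blue where called. Most peroxisome genes lie within the central cloud, and the called genes lie along its diagonal except CRC1, which is high on replicate 3 alone.

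By sub-list, the medians were 0.17 over the 12 beta-oxidation and carnitine genes and 0.085 over the 27 peroxins. Of the 12, 2 were called higher and 0 lower (16.7% and 0%). Of the 27 peroxins, 2 were higher and 3 lower (7.41% and 11.1%). Over all genes these shares were 14.5% and 18.1%. At an unadjusted limma p under 0.05, 4 of the 12 passed (33.3%), against 42.2% of all genes. FOX2 and SPS19 were those that passed beside CAT2 and CRC1, all above 0. The beta-oxidation median was 0.25, 0.30 and 0.10 on replicates 1, 2 and 3. That of the peroxins was 0.11, 0.0017 and 0.040.

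The transcription factors that control these genes were measured too. ADR1, an activator of peroxisomal genes when glucose is absent, was lower in treated cells (-1.12 ± 0.50, 2.17-fold lower, limma adjusted p = 0.00113), with -1.40, -0.54 and -1.42 on the 3 arrays. OAF1, a subunit of the oleate-responsive activator, rose slightly, by 0.55 ± 0.16 (adjusted p = 0.0319), with 0.37, 0.61 and 0.68 on the 3 arrays. The call of OAF1 was lost without replicate 1 (adjusted p = 0.167), without replicate 3 (0.0901) and as deposited (0.0985). Its partner PIP2 had 0.33 ± 0.37 (limma adjusted p = 0.219) and was called higher without replicate 2 (0.0327), and the negative regulator OAF3 had -0.0075 ± 0.21 (adjusted p = 0.980). CTA1, the peroxisomal catalase that removes the peroxide made by Pox1, fell (-0.79 ± 0.41, limma adjusted p = 0.00821), with -1.06, -0.32 and -0.999 on the 3 arrays. The call of CTA1 was lost without replicate 1 (adjusted p = 0.152) and as deposited (0.0684).

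Some other enzymes housed in peroxisomes changed strongly. Of 14 such genes, 5 rose (35.7%) and 2 fell (14.3%), with a median of 0.24. Over all genes, 14.5% were called higher and 18.1% lower. The largest rises were those of PNC1, a nicotinamidase (2.67 ± 0.25, limma adjusted p = 6.25e-07), STR3, a cystathionine beta-lyase (2.40 ± 0.37), and GTO1, an omega-class glutathione transferase (1.28 ± 0.15). PXP1, a peroxisomal protein of uncertain function, fell (-0.82 ± 0.22, adjusted p = 0.00388), though not without replicate 1 (0.0793) or as deposited (0.0558). Without replicate 1, 3 of the 14 rose and 0 fell. Of 9 genes of peroxisome fission, inheritance and turnover, 0 were called by limma, and as deposited 0 were, while 3 were called higher without replicate 2. At an unadjusted limma p under 0.05, 3 of the 9 passed (33.3%), against 42.2% of all genes. Of 5 genes of fatty acid uptake and activation outside peroxisomes, 2 fell, the acyl-CoA synthetases FAA4 (-1.99 ± 0.13, adjusted p = 3.40e-06) and FAA3 (-1.18 ± 0.25, adjusted p = 0.000315), and 0 rose. With replicate 2 left out, 1 of these 5 rose.

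Lists of related metabolism gave other counts, set here beside 14.5% higher and 18.1% lower over all genes. Of 11 genes of fatty acid synthesis and elongation, 5 fell (45.5%) and 0 rose, with a median of -0.51. The lowest were OLE1, the desaturase (-2.40 ± 0.72), FAS1, a fatty acid synthase subunit (-2.19 ± 0.33), and ELO3, an elongase (-1.89 ± 0.45). Without replicate 2, 6 fell and 1 rose. Of 10 genes of the glyoxylate cycle and the use of acetyl units, 2 rose (20%) and 1 fell (10%), with a median of 0.18. These shares lie near those over all genes. ACS1, an acetyl-CoA synthetase (1.23 ± 0.15), and ICL1, isocitrate lyase (0.78 ± 0.32), rose, and MDH2, the cytosolic malate dehydrogenase (-1.08 ± 0.35), fell. Without replicate 2, and likewise without replicate 3, 3 of these 10 rose. Of 36 ATG genes of autophagy, 11 rose (30.6%) and 0 fell, with a median of 0.28. Those that rose were led by ATG8 (1.58 ± 0.81), ATG19 (1.47 ± 0.27) and ATG29 (1.42 ± 0.53). Without replicate 1, 5 ATG genes rose, and without replicate 2 or without replicate 3, 1 fell. The differences between these lists and the peroxisome genes are descriptions and were not tested.

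**Figure D4:**
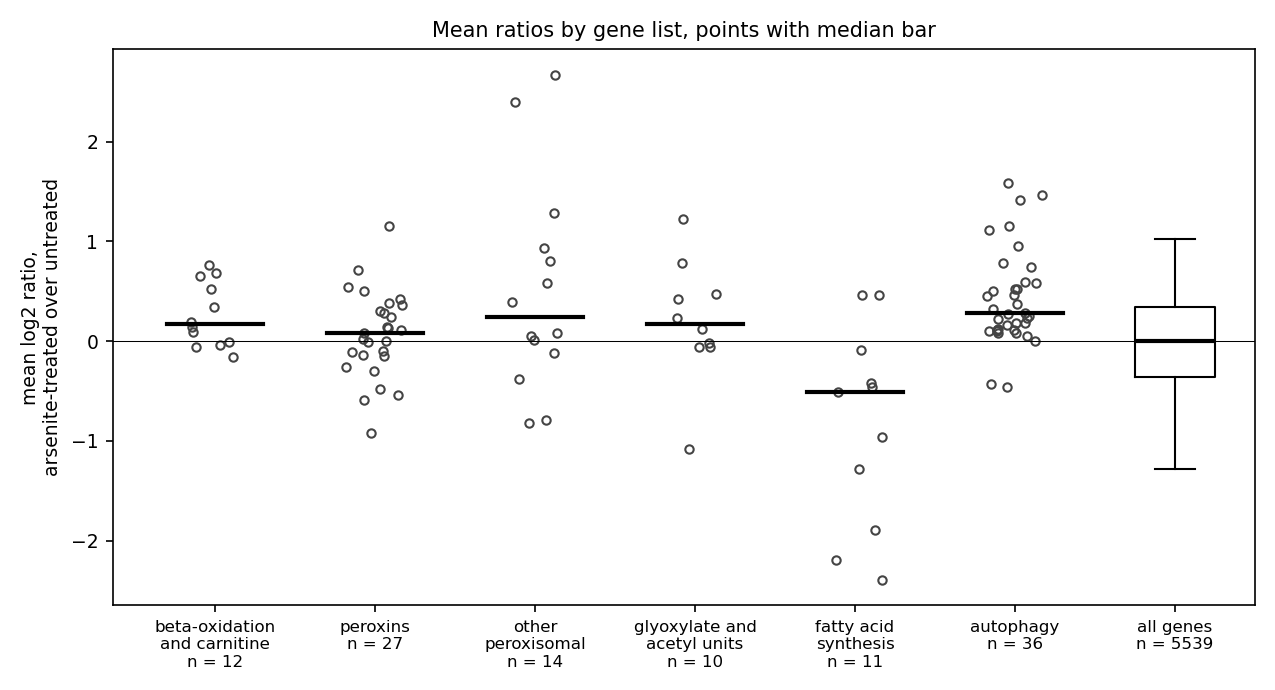
Mean log2 ratio, treated over untreated (vertical axis), for each gene of 6 lists (open circles, with the median as a bar) and for all 5539 genes (box from the lower to the upper quartile with the median, whiskers at the 5th and 95th percentiles). The beta-oxidation and peroxin genes spread over a narrow range, -0.92 to 1.16, while fatty acid synthesis reaches -2.40 and the other peroxisomal genes 2.67.

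The genes next to the 7 called peroxisome genes, by the gene order of the R64 reference, were read for shared movement along the chromosome. Of the 14 neighbours, 2 were called in the same direction, 4 in the opposite direction and 8 not at all. Over all genes, 32.7% were called, 14.5% higher and 18.1% lower. Shared movement of neighbours was not tested. PRD1, a metalloendopeptidase gene beside PEX34, rose (1.03 ± 0.064), and VPS71 beside CAT2 rose (0.57 ± 0.13). In the other direction, HEL2, a ubiquitin ligase gene beside PEX10, rose (3.36 ± 0.31), while RPL38 beside PEX30 (-2.17 ± 0.87) and KTR1 and RAS1 on either side of CRC1 (-0.59 ± 0.18 and -1.12 ± 0.22) fell. These neighbours were looked at after the calls were known.

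The labels name wild-type yeast, and ratios give no levels, so defining markers could not be checked for presence. Of 7 a-cell markers, 4 fell (57.1%) and 0 rose, beside 18.1% lower and 14.5% higher over all genes. MFA2 (-1.25 ± 0.77), STE2 (-1.02 ± 0.57) and STE6 (-0.98 ± 0.41) were among those that fell. ASG7, the 1 marker of the 7 with a mean above 0, had 0.31, 0.57 and 0.43 on the 3 arrays. Its mean was 0.44 ± 0.13 (limma adjusted p = 0.0784). Of 4 alpha-cell markers, STE3 rose (1.70 ± 0.52) and MF(ALPHA)2 fell (-0.62 ± 0.47). The call of MF(ALPHA)2 was lost without replicate 1 (limma adjusted p = 0.186) or replicate 2 (0.138). Of 6 sporulation markers, IME2 (1.98 ± 0.53) and HOP1 (0.80 ± 0.30) rose, HOP1 not without replicate 1 (adjusted p = 0.0872). The part of these marker changes in the peroxisome results was not tested.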

How the data were processed

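RNA of arsenite-treated and untreated cells was compared on 3 two-colour arrays. The deposited values, 13056 spots per array, were read as log2 ratios of both channels made by the authors; the sources used here do not give scanner, background correction or normalization. The platform annotation names 11138 spots for 5539 genes; the 39 peroxisome genes have 2 spots each, and all matched RefSeq R64 by gene ID. No intensities are given, so signal over background is unknown, and the number of arrays limits the precision. Array medians over genes, once turned, were -0.10, 0.52 and -0.14 before centring.

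Spots were averaged per gene, replicate 3 was multiplied by -1, and each array was centred on its median over genes. Mean ratios were compared with 0 by moderated tests (lmFit, eBayes) in limma 3.58.1 under R 4.3.3, two-sided, with Benjamini-Hochberg adjustment over 5539 genes and a threshold of 0.05. The prior had 10.8 degrees of freedom beside 2 residual ones. The procedure was tested on simulated data. P-values measure only the spread between these arrays, which may be technical. With 10.8 prior against 2 residual degrees of freedom, a gene's variance rests more on the spread pooled over all genes than on its own. As deposited, with a dye term, and without replicate 1 or replicate 3, the prior degrees of freedom were infinite. Every gene then had the same variance, so its own spread had no part in those tests. No filter on low values was used. Figures used Python 3.11.15, pandas 2.3.3 and matplotlib 3.10.9. The genes and lists were chosen with earlier results of these data known. Every measured peroxisome gene is named; OAF1, PIP2, OAF3, ADR1 and CTA1 are always named; of other lists, up to 3 called genes in the main direction and 1 in the other; the called neighbours were chosen after their values were seen. Alternatives were other centrings and scalings, single spots, a dye term, other variance models and each array left out.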

Additional observations from a re-analysis of the deposited data

How the results depend on the processing

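Across 14 alternatives, PEX34 and PEX3 kept their calls in 13 and lost them only when the variance of each gene was left unmoderated, a fit with 2 residual degrees of freedom in which 0 peroxisome genes were higher, 0 lower, and 5 and 4 of all genes were called. CAT2 and PEX30 lost their calls in 2 of the 14, PEX2 in 4, CRC1 in 5 and PEX10 in 7. With arrays left out one at a time, the peroxisome genes called higher ranged from 2 to 8 and those lower from 1 to 3, all genes called higher from 412 to 939 and lower from 602 to 1071, and the medians from 0.037 to 0.15 (all 39), 0.029 to 0.25 (beta-oxidation) and 0.056 to 0.094 (peroxins). As deposited, 603 of all genes and 1 peroxisome gene were lower, with medians of 0.21 (all 39) and 0.18 (peroxins), where the median of all genes was 0.10. Quantile normalization gave 8 higher and medians of 0.21, 0.27 (beta-oxidation) and 0.16 (peroxins), beside 0.10 for all genes; it moved the split of all calls to 1109 higher and 869 lower, from 805 and 1004. As deposited that split was 606 and 603. With the first spot of each gene alone, 7 were higher and 1 lower (766 and 928 of all genes), and with the last spot the peroxin median was 0.013. A dye term gave 7 higher, FOX2, PEX5 and PEX22 in addition, and 962 higher and 1097 lower of all genes. Array weights gave 17 higher and 8 lower, 1826 and 1900 of all genes, and turned FAA2 (0.29), PEX9 (-0.34) and PEX32 (-0.24). The cause was not tested in these cases, except that leaving out an array means fewer samples. No separate paired analysis was made because each array already sets treated against untreated cells. Testing this 1 group of ratios against 0 is itself the paired comparison.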
